A study of Mus musculus with 5 samples.

Results

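The Toll-like receptor genes Tlr1, Tlr2, Tlr3, Tlr4, Tlr6, Tlr7, Tlr8, Tlr9 and Tlr13 and their shared adaptor gene Myd88 were followed in CD31-positive cells of mouse hearts taken 5 days after myocardial infarction. These 10 genes, of 17638 in the deposited table, were taken by symbol. Of the 10, Tlr13 was selected on its normalised counts in these same libraries, being high in Tbx1cko, so its values are given as a description without a test. The other 9 belong to the family, and their rows were read from a test over all genes. There were 2 libraries from Tbx1cko mice and 3 from control mice, all on a C57BL/6 background, 2 months old and infarcted. The series describes Tbx1cko as an endothelial knockout. The labels used here name neither the Cre driver nor the alleles carried by controls. Since nothing in them ties each library to its own animal, the p-values cover the variation among these libraries alone, which may be technical.

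Toll-like receptors are membrane proteins that recognise microbial products and molecules released by injured tissue. Tlr1, Tlr2, Tlr4 and Tlr6 act at the cell surface, while Tlr3, Tlr7, Tlr8, Tlr9 and Tlr13 bind nucleic acids inside endosomes. Apart from Tlr3, which uses the adaptor Ticam1, they signal through Myd88, which recruits the Irak kinases and leads to NF-kappaB activation. In the infarcted heart, macrophages, neutrophils and endothelial cells are all known to carry members of the family.

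Across all genes, 1 control library departed from the others in step with the GC content of transcripts. The part of GC content in the values of the members was not tested. The members differ in base composition. The following 120-base stretches from the middle of the largest coding exon of the longest protein-coding transcript show this contrast, with G and C in capitals. They were read 5′ to 3′ on the coding strand from GENCODE M21 transcripts (GRCm38). Tlr8 and Tlr7 were the members most depleted in that library, Tlr13 is the gene picked for its Tbx1cko values, and Tlr9 and Myd88 were not depleted to a like degree.
Tlr8: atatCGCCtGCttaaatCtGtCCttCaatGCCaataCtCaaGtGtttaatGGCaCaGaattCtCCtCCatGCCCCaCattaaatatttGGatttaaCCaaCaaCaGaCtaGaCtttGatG
Tlr7: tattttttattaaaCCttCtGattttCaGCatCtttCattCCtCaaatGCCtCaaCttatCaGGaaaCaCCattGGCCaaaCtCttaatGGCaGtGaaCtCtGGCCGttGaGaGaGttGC
Tlr13: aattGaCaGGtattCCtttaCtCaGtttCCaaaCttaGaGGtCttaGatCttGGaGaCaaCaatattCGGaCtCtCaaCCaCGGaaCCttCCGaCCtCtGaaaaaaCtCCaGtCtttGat
Tlr9: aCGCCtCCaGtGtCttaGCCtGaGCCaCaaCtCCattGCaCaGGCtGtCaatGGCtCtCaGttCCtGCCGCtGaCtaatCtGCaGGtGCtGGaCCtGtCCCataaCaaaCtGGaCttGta
Myd88: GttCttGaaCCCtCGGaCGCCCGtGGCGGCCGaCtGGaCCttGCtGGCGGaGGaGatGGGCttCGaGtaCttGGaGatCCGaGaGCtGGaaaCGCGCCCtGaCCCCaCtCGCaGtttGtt
The stretch of Tlr8 lies at chrX:167244244-167244363 on the minus strand and held 38.3% GC, and that of Tlr7 at chrX:167306853-167306972 on the minus strand held 39.2%. The Tlr13 stretch, at chrX:106158104-106158223 on the plus strand, held 40.8%. Tlr9 had 53.3% at chr9:106225002-106225121 on the plus strand, and Myd88 had 62.5% at chr9:119339736-119339855 on the minus strand. For the members not shown, the like stretches held 34.2% in Tlr1, 35.0% in Tlr6, 35.8% in Tlr4, 40.8% in Tlr2 and 43.3% in Tlr3. Those of Tlr1, Tlr6 and Tlr4 were thus lower in GC than those of Tlr8 and Tlr7, although these genes were less depleted. The stretches therefore do not rank the members by depletion. Over the longest transcript, GC content was 40.1% for Tlr8, 41.0% for Tlr7, 43.6% for Tlr13, 40.0% for Tlr3, 39.4% for Tlr4, 45.1% for Tlr1, 45.6% for Tlr6, 49.3% for Tlr2, 53.5% for Myd88 and 56.2% for Tlr9. The median over all genes tested was 49.7%.

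The reads behind the deposited values came to 17769729 and 16061666 in Tbx1cko libraries, and 14689782, 18617284 and 17338772 in control libraries. Control replicate 2 stood apart, with a Pearson r across genes of 0.859 to 0.889 with the other libraries, which reached 0.980 to 0.988 among themselves. These coefficients run across genes, which are no replicates, and serve as a description. Tbx1 had 18.3 and 17.3 normalised reads in Tbx1cko libraries, against 64.4, 72.7 and 69.6 in control libraries, lower in every library labelled Tbx1cko. Endothelial markers were abundant, with Cdh5 at 45379 to 62849 normalised reads, but the macrophage gene Lyz2 reached 29682 to 53428, so the CD31-positive fraction also held leukocyte RNA. In such bulk RNA, fewer cells of a type and less RNA per cell cannot be told apart.

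Among the endosomal receptors, Tlr13 is given first as a description. This receptor, which binds bacterial ribosomal RNA in mice, had 955.8 and 1139.3 normalised reads in Tbx1cko replicates 1 and 2, against 505.1, 47.8 and 669.9 in control replicates 1 to 3. Both Tbx1cko libraries lay above all controls, and control replicate 2 was far below the rest. The means were 1048 ± 130 in Tbx1cko (SD, n = 2) and 408 ± 322 in controls (SD, n = 3), a ratio of 2.57 that was 1.78 without control replicate 2. These values led to the choice of the gene.

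Tlr7, a receptor of single-stranded RNA, had 814.0 and 1138.3 normalised reads in Tbx1cko libraries, against 551.4, 15.6 and 664.3 in control libraries. Its groups did not overlap, with or without control replicate 2. On the scale of log2(normalised count + 1), Tbx1cko exceeded control by 2.40 (SE 1.67), with a limma adjusted p of 0.762. Without control replicate 2 it was 0.67 (SE 0.17), or 1.59-fold, with a limma adjusted p of 0.326. Tlr8, its close relative and neighbour on the X chromosome, had 710.7 and 1022.1 normalised reads in Tbx1cko libraries, against 523.1, 6.4 and 606.0 in control libraries. The 6.4 rested on 7 reads, for which an exact 95% Poisson interval runs from 2.81 to 14.4 reads and covers counting error only. Again the groups did not overlap. The log2 difference of Tlr8 was 2.68 (SE 2.01) with all libraries and 0.60 (SE 0.18) without control replicate 2, with limma adjusted p-values of 0.762 and 0.396.

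The other endosomal receptors behaved differently from each other. Tlr3, the receptor of viral duplex RNA, had 826.8 and 766.3 normalised reads in Tbx1cko libraries, against 668.9, 55.2 and 834.6 in control libraries. Of its 5207 exon bases, 381 (7.32%) overlap the gene Gm45542 on the opposite strand, so reads from that stretch are uncertain. The groups of Tlr3 overlapped, and the log2 difference of 1.34 (SE 1.21) with all libraries was 0.09 (SE 0.15) without control replicate 2. Tlr9, the receptor of unmethylated CpG DNA, had 194.8 and 215.0 normalised reads in Tbx1cko libraries, against 272.3, 226.3 and 238.1 in control libraries. It was the only member whose Tbx1cko values all lay below the controls. The log2 difference was -0.26 (SE 0.22) with all libraries and -0.31 (SE 0.18) without control replicate 2, with limma adjusted p-values of 0.762 and 0.746. After correction for GC content with all libraries, the difference of Tlr9 was 0.014 (SE 0.28).

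**Figure D1:**
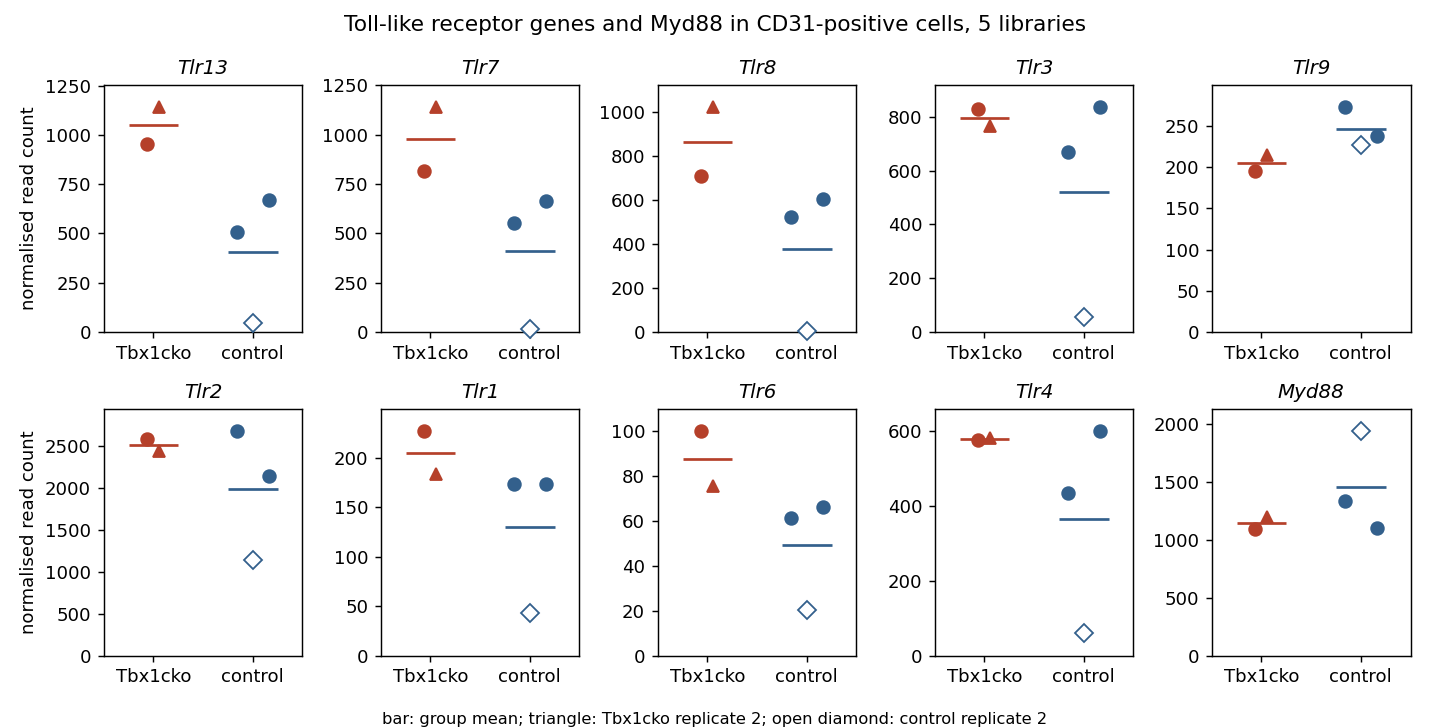
Normalised read counts of the 10 genes, each panel with its own linear axis, in Tbx1cko libraries (red, left) and control libraries (blue, right), where points are libraries and bars are group means. Control replicate 2, the open diamond, is the lowest library for every gene except Tlr9 and Myd88, and the red points lie above all blue points for Tlr1, Tlr6, Tlr7, Tlr8 and Tlr13.

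Among surface receptors, Tlr2, which recognises bacterial lipoproteins as a dimer with Tlr1 or Tlr6, had 2581.0 and 2437.6 normalised reads in Tbx1cko libraries, against 2674.5, 1137.8 and 2147.2 in control libraries. The groups overlapped, with a log2 difference of 0.42 (SE 0.39) that was 0.07 (SE 0.13) without control replicate 2. Its partner Tlr1 had 226.8 and 183.4 normalised reads in Tbx1cko libraries, against 174.0, 43.2 and 173.1 in control libraries. Tlr6 had 99.7 and 75.4 in Tbx1cko libraries, against 61.0, 20.2 and 65.9 in control libraries. For both partner genes the Tbx1cko values lay above all controls, narrowly so for Tlr1. The log2 differences without control replicate 2 were 0.23 (SE 0.19) for Tlr1 and 0.45 (SE 0.27) for Tlr6, with limma adjusted p-values of 0.839 and 0.765. Tlr1 and Tlr6 are neighbouring paralogs on chromosome 5, and 15.4% of the 50-base words of Tlr1 transcripts and 12.3% of those of Tlr6 also occurred in another gene, in each case mostly the other of the pair. Reads from those stretches may have been split between them or lost, so their counts are uncertain.

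Tlr4, the receptor of bacterial lipopolysaccharide, had 577.1 and 580.9 normalised reads in Tbx1cko libraries, against 435.0, 59.8 and 599.4 in control libraries. The Tbx1cko values fell between those of control replicates 1 and 3. The log2 difference was 1.21 (SE 1.01) with all libraries and 0.18 (SE 0.17) without control replicate 2, with limma adjusted p-values of 0.762 and 0.855. The adaptor gene Myd88 had 1093.9 and 1198.4 normalised reads in Tbx1cko libraries, against 1337.8, 1939.9 and 1105.6 in control libraries. Here control replicate 2 was the highest library, and the groups overlapped. The log2 difference of Myd88 was -0.31 (SE 0.29) with all libraries and -0.09 (SE 0.14) without control replicate 2. Of the 2576 exon bases of Myd88, 290 (11.3%) overlap exons of Acaa1a on the opposite strand. Reads from that stretch cannot be told apart, because the strand setting of the counting is not given. Acaa1a had 1006.1 and 1108.7 normalised reads in Tbx1cko libraries, against 1137.8, 1762.4 and 1028.4 in control libraries, and it too was highest in control replicate 2.

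None of the 9 members tested passed an adjusted p of 0.05 in limma, where 0.0% of 14339 genes passed, and 0 had an unadjusted p under 0.05, beside 0.37% of all genes with higher and 1.37% with lower Tbx1cko values. edgeR on the recovered reads also called 0 of the 9, with 0.0% of all genes called, and so did DESeq2, with 0.0279% called. Limma without control replicate 2 called 0 of the 9, with 0.0209% of all genes called. Groups did not overlap for 4 of the 9 with higher Tbx1cko values (Tlr1, Tlr6, Tlr7 and Tlr8), where 14.2% of all genes tested did so, and for Tlr9 with lower values, where 13.9% did. The same genes were free of overlap without control replicate 2, when the shares over all genes were 19.7% and 17.8%. In that fit Tlr7 and Tlr8 had an unadjusted p under 0.05, where such a p was reached by 3.39% of all genes with higher and 4.07% with lower Tbx1cko values. The median log2 difference of the 9 was 0.98 with all libraries and 0.18 without control replicate 2, while that of all genes tested was 0.03 and 0.02. All 10 genes passed the filter of a mean normalised count of 10.

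**Figure D2:**
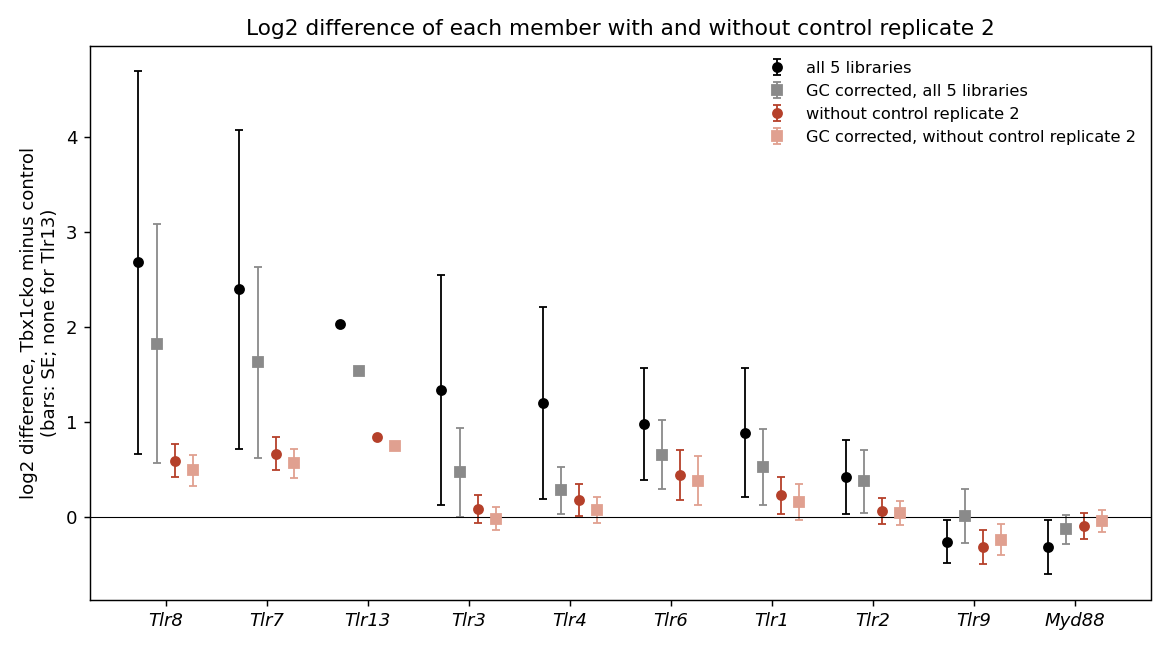
Log2 difference, Tbx1cko minus control, of each gene (points) with its SE (bars, none for Tlr13) in 4 fits that do or do not hold control replicate 2 and a GC correction. Without control replicate 2 the values of Tlr7, Tlr8 and Tlr13 lay between 0.49 and 0.84, and those of Tlr2, Tlr3, Tlr4 and Myd88 between -0.09 and 0.18.

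Control replicate 2 thus set much of the apparent difference of most members, and across all genes it departed in step with transcript GC content. It was the lowest of the 5 libraries for 8 of the 10 genes. These include Tlr13, which was selected on its values, so its place there is no evidence. Of all genes tested, 41.5% were lowest in control replicate 2. Relative to the mean of control replicates 1 and 3 its log2 value was -6.24 for Tlr8, -5.19 for Tlr7, -3.74 for Tlr3, -3.58 for Tlr13 and -3.07 for Tlr4. It was -1.98 for Tlr1, -1.60 for Tlr6, -1.07 for Tlr2, -0.17 for Tlr9 and 0.67 for Myd88. Only 59 of the 14339 genes tested, Tlr8 included, were as low in this library as Tlr8. Over 13771 genes this departure had a Spearman rho with transcript GC content of 0.794, a description across genes that share the library.

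The members stood at different distances from that general trend. After GC correction the departure was -0.62 for Tlr4 and -1.46 for Tlr3, but still -4.00 for Tlr8, -3.18 for Tlr7 and -2.35 for Tlr13. It was -0.98 for Tlr2 and -0.74 for Tlr9, so the high-GC member Tlr9 lay below the trend with GC content. Leukocyte genes also differed among themselves in control replicate 2. The macrophage complement gene C1qa, with 59.5% GC, had 7295 normalised reads in control replicate 2, against 9261 and 7048 in control replicates 1 and 3. The leukocyte gene Cd53, with 40.0% GC, had 18.4 normalised reads in control replicate 2, against 1973 and 2053 in the other controls. Ptprc, another pan-leukocyte gene with 39.4% GC, was less depleted, at 460 there against 2897 and 2636. Fcer1g, with 51.8% GC, had 1396 there, against 2010 and 1535. The pan-leukocyte gene Laptm5, with 56.0% GC, had 6135 normalised reads in control replicate 2, against 8448 and 6270 in the other controls. Control replicate 2 was the lowest library for 5 of 7 pan-leukocyte and 6 of 10 macrophage markers, beside 41.5% of all genes. The part of leukocyte content in these departures was not tested.

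**Figure D3:**
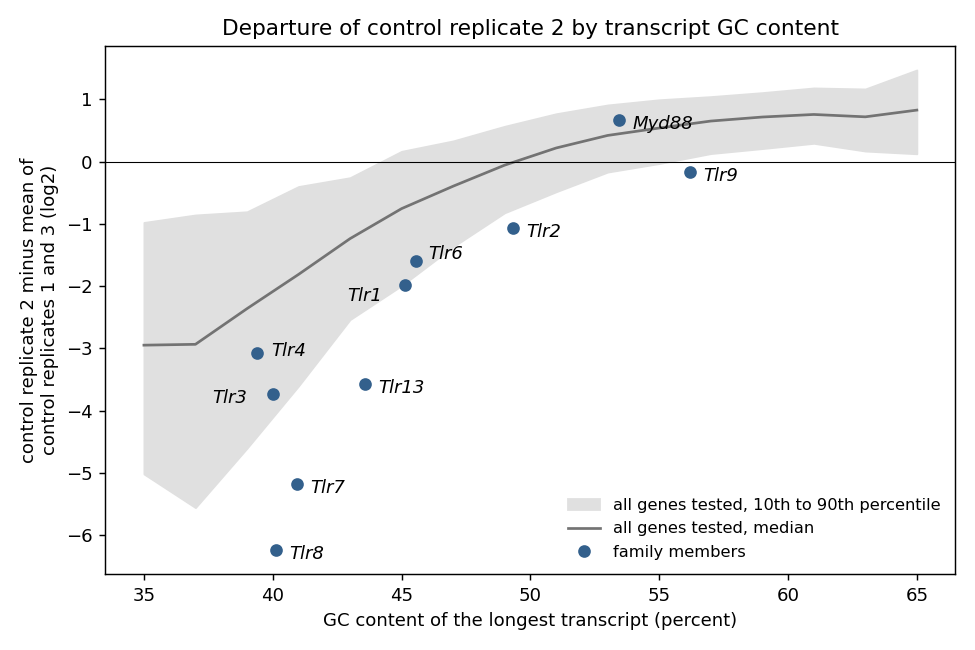
Log2 value of control replicate 2 minus the mean of control replicates 1 and 3 (vertical axis) against the GC content of the longest transcript (horizontal axis), for the 10 genes (points) and all genes tested in bins of GC content (line for the median, band from the 10th to the 90th percentile). Tlr7, Tlr8 and Tlr13 lie below the band, at -5.19, -6.24 and -3.58, as do Tlr2 and Tlr9 by smaller margins, Tlr1 sits on its lower edge, and Tlr3, Tlr4, Tlr6 and Myd88 lie within it.

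Tlr7, Tlr8 and Tlr13 are all on the X chromosome, and the libraries differed in sex. Xist had 0.0 and 12967.7 normalised reads in Tbx1cko replicates 1 and 2, against 16.9, 0.0 and 1.9 in control replicates 1 to 3. The Y-linked gene Ddx3y had 1928.9 and 3.1 in Tbx1cko libraries, against 1673.4, 43.2 and 2116.2 in control libraries. Tbx1cko replicate 2 was thus the only library with a female pattern, and it held the highest value of all 3 genes. Its log2 value exceeded that of Tbx1cko replicate 1 by 0.48 for Tlr7, 0.52 for Tlr8 and 0.25 for Tlr13. Over the 439 X-linked genes tested apart from Xist, the median of this difference was 0.02, with -0.34 at the lower and 0.48 at the upper decile. With 1 female library, sex and the library cannot be told apart.

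Values without the female library are given for these 3 genes. In a comparison added after the data were seen, of Tbx1cko replicate 1 with control replicates 1 and 3, the log2 difference was 0.43 (SE 0.18) for Tlr7, 0.34 (SE 0.18) for Tlr8 and 0.72 for Tlr13. The limma adjusted p was 0.747 for Tlr7 and 0.798 for Tlr8, on the assumption that the spread of the controls also holds for the lone Tbx1cko library. The part of sex in the differences was not tested. Without control replicate 2, the groups did not overlap, with higher Tbx1cko values, for 107 of the 439 X-linked genes (24.4%), against 19.7% of all genes tested.

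Of 8 lists of leukocyte markers, the monocyte and neutrophil lists had sums that were higher in both Tbx1cko libraries than in all controls. The summed level of 6 monocyte markers was 2176 and 1697 normalised reads in Tbx1cko libraries, against 1442, 357 and 1144 in control libraries. Of these, Ccr2 was at 0 in control replicate 2. The 7 neutrophil markers analysed of 9 summed to 1369 and 1330 in Tbx1cko libraries, against 964, 619 and 833 in control libraries, and the defining markers Ly6g and Camp were not analysed here. Platelet markers summed to 3686 and 3217 in Tbx1cko libraries, against 1363, 2029 and 2377 in control libraries. None of these 3 sums overlapped between groups. Higher without overlap were 4 of 6 monocyte, 5 of 7 neutrophil and 2 of 5 platelet markers tested, and 0 were lower. Of all genes tested, 14.2% were higher and 13.9% lower in this way. The mean log2 value of the platelet markers did overlap, at 7.75 and 6.89 in Tbx1cko libraries, against 6.43, 7.23 and 6.92 in control libraries. The sum of endothelial markers ran the other way, narrowly, at 173101 and 163018 in Tbx1cko libraries, against 184650, 231506 and 175014 in control libraries. Of these 10 markers, 5 were lower and 1 was higher without overlap, and their mean log2 values overlapped between groups. The mural sum was lower too, with 7 of 9 markers lower and 0 higher without overlap. Cardiomyocyte markers summed to 10802 and 9268 in Tbx1cko libraries, against 8620, 16625 and 7565 in control libraries. They overlapped with all libraries, but without control replicate 2 their sum and 7 of 8 of the markers were higher in Tbx1cko without overlap. Of all genes tested, 19.7% were so without control replicate 2. The sum of 10 macrophage markers did overlap, at 97440 and 99992 in Tbx1cko libraries, against 101436, 65233 and 79481 in control libraries. Sums of the pan-leukocyte, dendritic cell, B cell, T and NK cell and mast cell lists overlapped as well. The part of these cell types in the receptor values was not tested.

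The receptors were also set against leukocyte markers within each library. For Tlr7 the log2 value minus the mean log2 value of the macrophage markers was -2.82 and -2.31 in Tbx1cko libraries, against -3.41, -7.77 and -2.85 in control libraries, so that a margin of a few hundredths separated the groups. For Tlr8 it was -3.01 and -2.47 in Tbx1cko libraries, against -3.48, -8.93 and -2.98 in control libraries, and the groups overlapped. Measured against 7 markers of all leukocytes, Tlr7 and Tlr8 both overlapped between groups. For Tlr13, which was selected on these values and for which the order of the groups is therefore no evidence, the difference from macrophage markers was -2.59 and -2.31 in Tbx1cko libraries, against -3.53, -6.21 and -2.84 in control libraries. No test was made on these differences.

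To compare levels between genes, normalised reads were divided by exon length. In Tbx1cko libraries Tlr2 was highest at 833 ± 33.6 normalised reads per kb of exon, followed by Myd88 at 445 ± 28.7 (SD, n = 2 each). Tlr13 at 243 ± 30.2, Tlr8 at 242 ± 61.4 and Tlr7 at 239 ± 56.2 normalised reads per kb did not differ beyond their spread. Below them stood Tlr3 at 153 ± 8.21 and Tlr4 at 104 ± 0.477, then Tlr1 at 61.3 ± 9.17 and Tlr9 at 58.9 ± 4.11, whose ranges overlapped. Tlr6 was lowest at 23.5 ± 4.61 normalised reads per kb. In control replicates 1 and 3 the order began in the same way, with Tlr2 at 887 and 712 and Myd88 at 519 and 429 normalised reads per kb. There Tlr3 at 128 and 160, Tlr7 at 135 and 163, Tlr8 at 146 and 169 and Tlr13 at 117 and 156 overlapped. In control replicate 2 Myd88 came first at 753, and Tlr8 last at 1.80 normalised reads per kb.

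**Figure D4:**
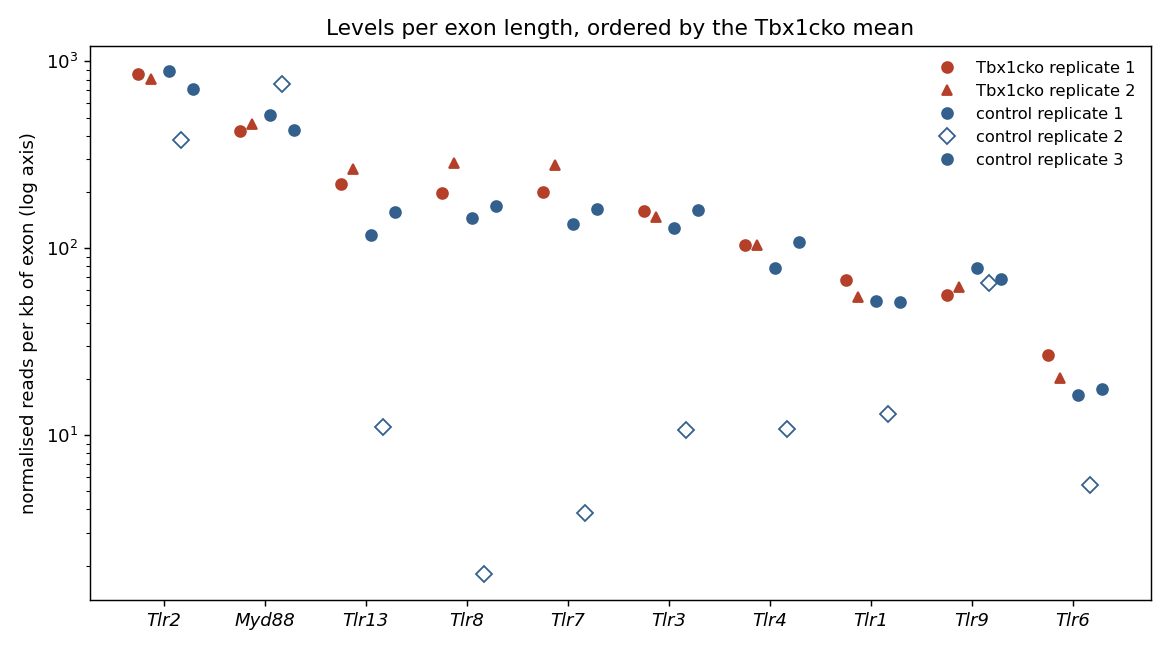
Normalised reads per kb of exon on a log axis for the 10 genes, ordered by the Tbx1cko mean, with Tbx1cko libraries in red to the left of control libraries in blue, each point a library. Tlr2 lies at 833 and Tlr6 at 23.5 on average in Tbx1cko libraries, and control replicate 2 (open diamonds) drops to 1.80 for Tlr8.

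The genes whose log2 profile was nearest to that of Tlr13 depended on control replicate 2. Likeness was measured as the root mean square difference of centred log2 values. It ran over 11134 genes whose normalised counts averaged 50 or more, leaving out Gm-number, Rik, BC and accession-type symbols. Over all 5 libraries the nearest were Zfp932, Fignl1, Ms4a4c, Zfp87 and Pex13, at 0.20 to 0.23, with transcript GC contents of 37.3% to 44.8%. Over the 4 libraries without control replicate 2, a measure added after the data were seen, they were Btla, Ms4a4b, Bcl2l1, Hk3 and Fsd2, at 0.033 to 0.060. Tlr7 ranked 29 and Tlr8 ranked 54 in this second order, against 484 and 1445 in the first. Since Tlr13 was selected for high Tbx1cko values, a near rank of other genes high in Tbx1cko is no evidence. For Myd88 the nearest over 5 libraries were Oaz1, Tln2, Ddrgk1, Icosl and C2cd2l, at 0.022 to 0.030, and over 4 libraries Lsm5, Zbtb39, Ppip5k1, Map1lc3b and Ptpn1, at 0.0083 to 0.014.

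Other genes of Toll-like receptor signalling were read from 11 lists holding 117 genes, of which 111 were tested. With all libraries 0 passed the limma threshold, as did 0.0% of all genes. The groups did not overlap for 28 of the 111 with higher and 13 with lower Tbx1cko values, or 25.2% and 11.7%, beside 14.2% and 13.9% of all genes. Without control replicate 2 the counts were 32 and 19, or 28.8% and 17.1%, beside 19.7% and 17.8% of all genes. The median log2 difference of the 111 was 0.17 with all libraries and 0.03 without control replicate 2. Of the receptors outside the 10 genes, Tlr5, the flagellin receptor, had 203.0 and 153.9 normalised reads in Tbx1cko libraries, against 163.8, 109.5 and 199.5 in control libraries. Tlr12 was near 0 in every library, at no more than 9.2 normalised reads, and Tlr11 was not analysed here.

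Among partners of the receptors, 4 of 5 other adaptor genes were tested, and their groups overlapped. The bridging adaptor gene Tirap had 407.0 and 457.6 normalised reads in Tbx1cko libraries, against 358.2, 286.1 and 414.0 in control libraries, and Ticam1, Ticam2 and Pik3ap1 likewise overlapped. Of 6 co-receptor genes, Lbp, which delivers lipopolysaccharide to Cd14, had 228.7 and 297.6 normalised reads in Tbx1cko libraries, against 385.3, 628.2 and 433.8 in control libraries. Cd180, a Tlr4 relative of B cells and myeloid cells, had 598.2 and 765.3 in Tbx1cko libraries, against 422.6, 120.5 and 500.6 in control libraries. Their groups did not overlap, in opposite directions, while those of Ly96, the lipopolysaccharide-binding partner of Tlr4, and Cd36 overlapped. In this list 1 of 6 genes was higher and 1 was lower without overlap, beside 14.2% and 13.9% of all genes. Ly96 was at 0 in control replicate 2, against 120.9 and 100.7 normalised reads in the other controls.

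Endosomal receptors must be cut by proteases before they signal, and all 18 genes of chaperones and endosomal handling were tested. Ctss had 12541.1 and 14328.1 normalised reads in Tbx1cko libraries, against 11355.5, 6784.6 and 10532.9 in control libraries. Lgmn had 11558.8 and 12507.1 in Tbx1cko libraries, against 10638.0, 8923.1 and 9724.6 in control libraries. The values of these proteases and of Ctsl lay above all controls, at log2 differences of 0.52 (SE 0.27), 0.30 (SE 0.17) and 0.38 (SE 0.18) for Ctss, Lgmn and Ctsl. Rnaset2a overlapped between groups, and its near-identical copy Rnaset2b makes its count uncertain. In this list 6 of 18 genes had higher and 1 had lower Tbx1cko values without overlap, beside 14.2% and 13.9% of all genes.

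Of 17 kinase and ubiquitin ligase genes tested of 18 listed, 4 had higher and 0 had lower Tbx1cko values without overlap, beside 14.2% and 13.9% of all genes. Without control replicate 2 these counts were 7 and 1, beside 19.7% and 17.8%. Among the 4 were Ikbkg, Tab2 and Tbk1, at log2 differences of 0.47, 0.42 and 0.34, while Map3k7 overlapped. Of 8 transcription factor genes, 1 was higher and 3 were lower without overlap, and of 12 inhibitor genes 2 were higher and 4 lower, with the same shares of all genes beside them and the same counts without control replicate 2. Rela, the transactivating NF-kappaB subunit, had 2801.5 and 2607.8 normalised reads in Tbx1cko libraries, against 3546.8, 5435.2 and 3098.5 in control libraries. Irf8 and Nfkb1 also lay below all controls, and Irf1 overlapped. The inhibitor gene Nfkbia, which encodes the protein that retains NF-kappaB in the cytoplasm, had 11031.1 and 11318.8 in Tbx1cko libraries, against 14330.5, 16051.7 and 13190.1 in control libraries. Socs1 had 344.8 and 334.3 in Tbx1cko libraries, against 602.2, 1494.7 and 455.4 in control libraries. The other inhibitors lower without overlap were Tnip1 and Zc3h12a. The transcripts of these 4 inhibitors had GC contents of 52.9% to 58.8%, and those of the named kinase genes 44.7% to 48.3%. Without control replicate 2 the log2 differences were -0.30 for Nfkbia, -0.62 for Socs1, -0.35 for Tnip1 and -0.30 for Zc3h12a. Those of Ikbkg, Tab2, Tbk1 and Map3k7 were then 0.23, 0.15, 0.16 and 0.15. The part of GC content in these differences was not tested.

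Of the IL-1 family receptors that also use Myd88, Il18rap had 47.6 and 65.2 normalised reads in Tbx1cko libraries, against 27.1, 17.5 and 43.3 in control libraries, and Il1rl2, Il1rap and Il18r1 overlapped. Of the 6 receptor genes in this list, 1 was higher and 0 were lower without overlap, beside 14.2% and 13.9% of all genes. Among genes that Toll-like receptors induce, Tnf had 1585.9 and 1238.2 normalised reads in Tbx1cko libraries, against 701.7, 846.2 and 1040.7 in control libraries. Its log2 difference was 0.72 (SE 0.26) with all libraries and 0.71 without control replicate 2, with a limma adjusted p of 0.762 and 0.330. The neutrophil chemokine genes Cxcl1 and Cxcl2 also lay above all controls, at log2 differences of 0.71 (SE 0.31) and 0.81 (SE 0.38). Icam1, an endothelial adhesion receptor, had 7071.8 and 8926.0 in Tbx1cko libraries, against 11938.5, 15027.0 and 10713.5 in control libraries. Among 19 induced genes tested, 6 were higher and 2 lower without overlap, beside 14.2% and 13.9% of all genes. Without control replicate 2 there were 6 higher and 6 lower, beside 19.7% and 17.8%.

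Of the endogenous ligands, the Tlr4 ligand genes S100a8 and S100a9, which are also neutrophil markers, had higher Tbx1cko values. S100a8 had 116.2 and 90.7 normalised reads in Tbx1cko libraries, against 50.8, 1.8 and 20.7 in control libraries. S100a9 had 301.8 and 190.6 in Tbx1cko libraries, against 134.5, 14.7 and 56.5 in control libraries. The matrix proteoglycan gene Bgn had 8472.0 and 8724.3 in Tbx1cko libraries, against 12415.3, 9999.3 and 10862.2 in control libraries, and Hmgb1 overlapped. Of the 8 ligand genes tested, 2 were higher and 1 was lower without overlap, beside 14.2% and 13.9% of all genes. Among other pattern sensors, the myeloid lectin gene Clec4d had 1695.7 and 1343.1 in Tbx1cko libraries, against 623.7, 237.3 and 1036.0 in control libraries. Nlrp3 was higher and Nod2 lower without overlap, and Tmem173 overlapped. Of 12 sensor genes tested, 5 were higher and 1 was lower without overlap, with the same shares of all genes beside them.

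DESeq2 without control replicate 2 called 3 of the 111 pathway genes, where 0.453% of all genes were called. These were S100a9, higher at a log2 difference of 1.36 (adjusted p = 0.0439), Clec4d, higher at 0.86 (adjusted p = 0.0239), and Il6, lower at -0.77 (adjusted p = 0.0317), the last named after its values were seen. Il6 had 1745.1 and 2191.0 normalised reads in Tbx1cko libraries, against 3990.8, 131.5 and 2633.7 in control libraries, so control replicate 2 lay far below both Tbx1cko values. Limma on the same 4 libraries called none of the 3, at adjusted p-values of 0.273 to 0.317, and DESeq2 with all 5 libraries called 0 of the 111. DESeq2 without control replicate 2 gave Tlr7 an adjusted p of 0.0985 and Tlr8 of 0.223.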

How the data were processed

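mRNA of CD31-positive cells was sequenced in 5 libraries, 2 Tbx1cko and 3 control, grouped by sample title. Per the labels' protocols, the RNA source was hearts, extracted with TRIzol LS, and a TruSeq kit was used for library preparation. GRCm38 (mm10) is the build named in the submitters' processing notes, beside DESeq2 1.20.0, R 3.5.1, DESeq and STAR 2.5.2b. The read counter, annotation and strand setting: not given in the sources used here. The authors deposited a signal for each gene, namely reads scaled by the size factor of the library: 100% of values were whole multiples of the library's smallest value above 0, within 0.01.

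limma 3.58.1 (R 4.3.3) with a trended prior was fitted to log2(normalised count + 1) for the 14339 genes with a mean of at least 10, 2-sided, with Benjamini-Hochberg adjustment over all of them and a threshold of 0.05. The pseudocount understates changes of low genes. edgeR 4.0.16 and DESeq2 1.42.0 were run on recovered reads. GC correction subtracted from each library a loess (span 0.3) of its deviations against GC content, for 13771 genes (96.0%) with a value in GENCODE M21, which also gave exon lengths and positions. Replicates of a group differed by more than sampling noise, with a chi-square per degree of freedom of at least 13.0, so none was counted as a duplicate. The scripts were tested on simulated data.

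The genes and lists were chosen with earlier results of these data known. All 10 genes were named, as were up to 4 genes per list with the smallest unadjusted limma p, and the 5 nearest profiles of Tlr13 and Myd88. Of the markers, the most abundant of a list and defining markers at 0 were named. C1qa, Cd53, Ptprc, Fcer1g, Xist and Ddx3y were named with their values already in view.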

Additional observations from a re-analysis of the deposited data

How the results depend on the processing

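Under every alternative run, 0 of the 9 members tested passed the threshold, and of their 180 log2 differences 178 kept their sign. The exceptions were Tlr3, at -0.013 with GC correction without control replicate 2, and Tlr9, at 0.014 with GC correction of all libraries. The size was less stable: Tlr8 ranged from 0.34 to 3.77, Tlr7 from 0.43 to 3.33 and Tlr13 from 0.72 to 2.73. Over all genes, limma called 0, DESeq2 called 4, edgeR without control replicate 2 called 1 and DESeq2 without it called 65. Leaving out each library in turn gave 0 to 3 genes in limma, with 3 without control replicate 2. Of the pathway genes, DESeq2 without control replicate 2 called 3, where limma called 0. With the replicate block, limma called 3 genes, none of them a member or pathway gene. The numbers do not pair the samples, since same-numbered libraries deviated from their group means with correlations of -0.06 and -0.05 and the labels state no shared origin. Tlr8 in control replicate 2 rested on 7 reads, the fewest of any value of the 10 genes. That library was nonetheless the deepest, with 18617284 reads. The causes of these dependences were not tested.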
